A study of Mus musculus with 7 samples.

Results

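The genes that encode the collagen prolyl and lysyl hydroxylases and the lysyl oxidases were read in mouse embryonic fibroblasts (MEFs) under 6 kinds of stress. These are P4ha1, P4ha2 and P4ha3, Plod1, Plod2 and Plod3, and Lox, Loxl1, Loxl2 and Loxl3, that is 10 of the 49382 genes in the expression table, chosen by gene symbol and each found on a single row. All 10 passed the expression filter, a mean over the libraries of 2 TPM or more, which 12909 genes did. TPM is a gene's share of the transcripts in a library, corrected for transcript length and scaled to a total of 1000000, so levels of different genes can be compared.

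The 7 RNA-seq libraries came from wild type primary fibroblasts of embryonic day 13.5 to 14.4 mouse embryos, used between passage 3 and passage 7 and plated at 10000 cells per square cm. There was 1 control library, 1 each after 10 hours in glucose-free medium (glucose depletion), in glutamine-free medium (glutamine depletion), at 0.1% oxygen (hypoxia) or with 1 μM thapsigargin (ER stress), and 1 each after 3 hours with 10 μM sodium arsenite (oxidative stress) or 100 mM added NaCl (osmotic stress). The control carries no time label, and the duration of a stress cannot be told apart from its kind between the 3 hour and the 10 hour libraries. There were no replicates, so differences could not be set against the spread between cultures, no p-value is given, and the sequencing depth behind the TPM is unknown. The study's methods describe MEFs sorted for purity, and the labels do not say whether the cells of these libraries were.

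Collagen chains are modified in the endoplasmic reticulum before they fold. Prolyl 4-hydroxylase, a complex of an alpha subunit encoded by a P4ha gene with protein disulfide isomerase (P4hb), hydroxylates prolines and so makes the triple helix stable at body temperature. The Plod genes encode lysyl hydroxylases, whose products carry sugars and determine which crosslinks form; the enzyme of Plod2 acts on the telopeptides at the ends of the chains, and that of Plod3 also transfers sugars. Both kinds of hydroxylase use oxygen, iron, ascorbate and 2-oxoglutarate. Lox and its relatives encode copper-dependent amine oxidases that act outside the cell, use oxygen as well, and convert lysines and hydroxylysines of collagen and elastin to the aldehydes from which crosslinks form. Loxl2 and Loxl3 belong to a branch of this family with scavenger receptor domains, which Lox and Loxl1 lack. Several of these genes are known targets of HIF, the transcription factor that is stabilized when oxygen is low.

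In hypoxia 4 of the 10 genes rose by more than 2-fold, namely P4ha1, P4ha2, Plod1 and Plod2, and 0 fell. A change here is the difference in log2(TPM + 1) from the control library. Past 2-fold were 3.57% of the 12909 genes upward and 2.64% downward, and 1.93% upward of the 11305 that are protein-coding, a set chosen after seeing the data. In ER stress all 10 genes were below the control, 2 of them, Loxl1 and Loxl3, by more than 2-fold. In that library 11.0% of all genes and 9.79% of the protein-coding ones lay below that threshold, and 0 of the 10 genes against 8.6% of all genes lay above 2-fold. In the other 4 conditions none of the 10 changed by more than 2-fold.

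**Figure D1:**
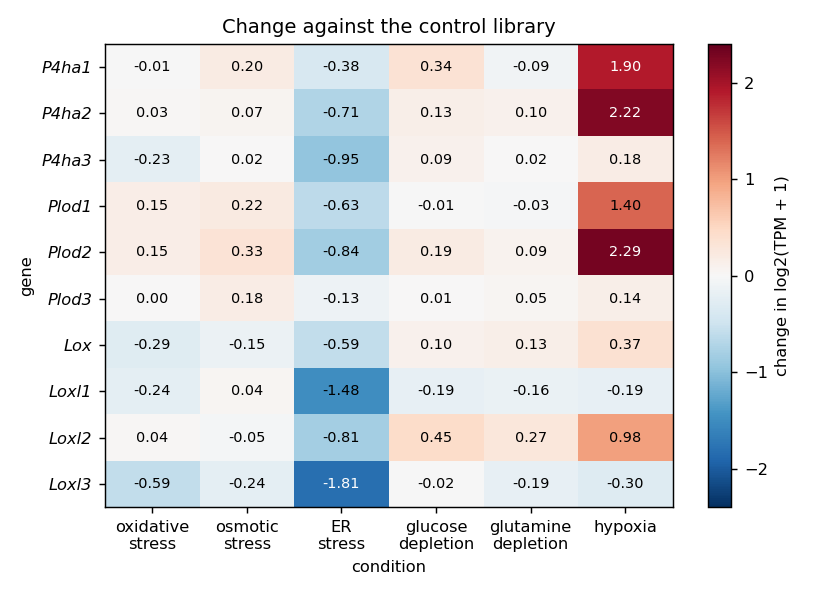
Change in log2(TPM + 1) of each gene (rows) in each of 6 conditions (columns) against the control library, with 1 library per condition; red is higher and blue is lower. The hypoxia column holds the 4 values above 1, and the whole ER stress column is negative.

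Upstream sequence was at hand for 5 of the 10 genes in the RefSeq promoter table (build GRCm38.p6). The 250 bases before the annotated start are shown for the 3 of these genes that rose in hypoxia and for P4ha3, which did not, because the core of the element that HIF binds can be looked for in them. The core was searched as ACGTG or GCGTG on both strands, and capitals mark every match; on the minus strand it reads CACGT or CACGC.
P4ha1, chr10:59323046-59323295, plus strand: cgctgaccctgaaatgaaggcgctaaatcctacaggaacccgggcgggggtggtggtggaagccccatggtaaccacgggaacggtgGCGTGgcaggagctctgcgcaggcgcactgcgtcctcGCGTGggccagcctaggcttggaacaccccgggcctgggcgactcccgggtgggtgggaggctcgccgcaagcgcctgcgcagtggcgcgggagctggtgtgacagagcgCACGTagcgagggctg
P4ha2, chr11:54100674-54100923, plus strand: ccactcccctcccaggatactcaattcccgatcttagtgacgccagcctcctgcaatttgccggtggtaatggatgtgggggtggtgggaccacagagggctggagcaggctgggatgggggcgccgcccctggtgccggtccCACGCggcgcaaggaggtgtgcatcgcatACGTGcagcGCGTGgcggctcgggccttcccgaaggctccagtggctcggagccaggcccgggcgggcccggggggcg
Plod1, chr4:147936777-147937026, minus strand: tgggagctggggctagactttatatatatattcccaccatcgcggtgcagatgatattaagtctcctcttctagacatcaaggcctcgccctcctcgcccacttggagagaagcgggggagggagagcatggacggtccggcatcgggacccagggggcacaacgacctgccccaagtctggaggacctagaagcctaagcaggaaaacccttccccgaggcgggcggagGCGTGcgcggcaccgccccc
P4ha3, chr7:100285270-100285519, plus strand: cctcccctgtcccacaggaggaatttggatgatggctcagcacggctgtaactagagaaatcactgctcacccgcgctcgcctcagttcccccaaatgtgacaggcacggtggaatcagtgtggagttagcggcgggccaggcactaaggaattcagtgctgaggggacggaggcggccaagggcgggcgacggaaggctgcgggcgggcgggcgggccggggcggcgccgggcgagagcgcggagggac
P4ha1 held 3 matches, which began 163, 126 and 16 bases before the start. P4ha2 also held 3, at 107, 78 and 69 bases. In Plod1 there was 1 match, at 20 bases, and in P4ha3 there were 0. Plod3, whose window overlaps an exon of the neighbouring gene Znhit1 and is not shown, held 4, although its level stayed within 2-fold of the control in every library. Of 32851 promoter windows of the same length, 38.6% held at least 1 match and 6.58% held 3 or more. These shares were not matched for base content, and the searched core contains a CG. The bases G and C made up 69.6% of the P4ha1 window, 70.0% of P4ha2, 61.6% of Plod1, 67.2% of P4ha3 and 55.6% of Plod3. The window of P4ha2 lies inside the gene as GENCODE M21 draws it, in an intron of a longer transcript, and those of P4ha1, Plod1 and P4ha3 touch no annotated gene. Neither the ER stress element, searched as CCAAT and CCACG with 9 bases between them, nor the AP-1 site TGANTCA was found in the 5 windows; they occur in 0.113% and 6.75% of all windows. A match describes the letters in a window and is not evidence of binding.

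The prolyl 4-hydroxylase alpha subunits differed in their response to hypoxia. P4ha1 (ENSMUSG00000019916, chromosome 10, 59323296 to 59373304) stood at 129.6 TPM in the control, 128 under oxidative and 149 under osmotic stress, 99.5 under ER stress, 164.5 without glucose, 122 without glutamine and 486 in hypoxia. The hypoxia value lay above all others and was 3.75 times the control, a log2 change of 1.90, while the other 6 libraries lay between 99.5 and 164.5 TPM. P4ha2 (ENSMUSG00000018906, chromosome 11, 54100095 to 54131665) showed the same picture, with 106 TPM in the control, 108 under oxidative and 112 under osmotic stress, 64.6 under ER stress, 117 without glucose, 114 without glutamine and 500.2 in hypoxia. Its hypoxia level was 4.70 times that of the control (2.22) and exceeded the next highest library by 2.09 log2 units, while the 5 libraries between the lowest and the highest spanned 0.13. P4ha3 (ENSMUSG00000051048, chromosome 7, 100285520 to 100319699), the third alpha subunit, had 59.7 TPM in the control, 50.9 under oxidative and 60.4 under osmotic stress, 30.5 under ER stress, 63.8 without glucose, 60.4 without glutamine and 67.7 in hypoxia. It was highest in hypoxia by a margin of only 0.08 log2 units over glucose depletion (0.18 against the control), and the library that stood apart was ER stress, at 0.511 times the control (-0.95), just short of 2-fold.

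**Figure D2:**
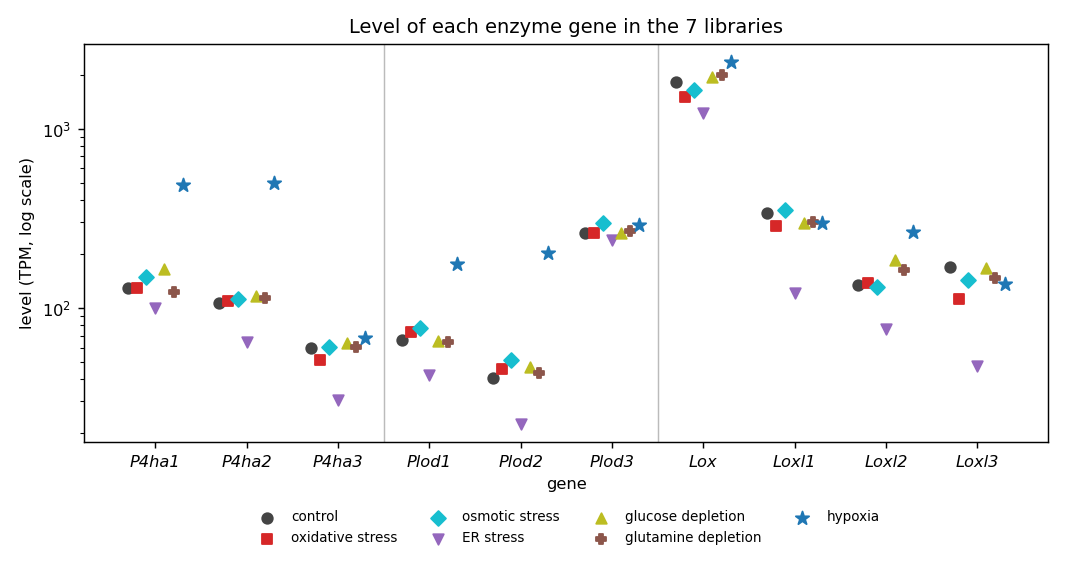
Level of each of the 10 genes (TPM, log scale) in the 7 libraries, with 1 point per library. Hypoxia stands clear of the rest for P4ha1, P4ha2, Plod1 and Plod2, and ER stress is the lowest point of every gene.

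The lysyl hydroxylases split in the same way. Plod2 (ENSMUSG00000032374, chromosome 9, 92542223 to 92608428), the telopeptide lysyl hydroxylase, was the least abundant of the 10 genes in the control, with 40.7 TPM, and had 45.4 under oxidative and 51.3 under osmotic stress, 22.3 under ER stress, 46.6 without glucose, 43.3 without glutamine and 203 in hypoxia. The hypoxia level was 4.98 times the control, the largest change among the 10 genes (2.29), and lay 1.96 log2 units above the next library. Plod1 (ENSMUSG00000019055, chromosome 4, 147909753 to 147936767), which hydroxylates lysines of the helix, had 66.0 TPM in the control, 73.5 under oxidative and 76.8 under osmotic stress, 42.2 under ER stress, 65.6 without glucose, 64.6 without glutamine and 176 in hypoxia. Its rise was 2.66-fold (1.40). By the size of the change in hypoxia, Plod2, P4ha2, P4ha1 and Plod1 ranked 191, 199, 225 and 324 from the top of the 12909 genes. Plod3 (ENSMUSG00000004846, chromosome 5, 136987019 to 136996648) was the steadiest of the 10, with 262 TPM in the control, 262 under oxidative and 296 under osmotic stress, 239 under ER stress, 263 without glucose, 270.1 without glutamine and 288 in hypoxia. The 7 libraries spanned 0.31 log2 units for Plod3, against 3.13 for Plod2, and its highest value came from osmotic stress, 0.04 above hypoxia.

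The make-up of both hydroxylase families was different in hypoxia. Plod2 supplied 11.1% of the summed TPM of the 3 Plod genes in the control, 7.36% in ER stress and between 11.5% and 12.4% in the other conditions, but 30.4% in hypoxia. The share of Plod3 was 43.2% in hypoxia and between 68.8% and 78.7% in the other 6 libraries. P4ha3 made up 20.2% of the P4ha transcripts in the control and 6.42% in hypoxia. The summed level of the 3 P4ha genes was 296 TPM in the control, 195 in ER stress and 1053 in hypoxia. Set against the summed TPM of 9 fibrillar collagen genes, the chains these enzymes act on, the P4ha sum amounted to 3.46% in the control, between 3.62% and 4.09% in the other conditions and 10.8% in hypoxia. As a share of the collagen sum the other families did not set hypoxia apart in this way, but the Plod sum itself did. It was 667 TPM in hypoxia and between 304 and 424 TPM in the other 6 libraries, lowest in ER stress. The Plod sum amounted to 4.31% of the collagen sum in the control, 6.38% in ER stress and 6.86% in hypoxia, and the lysyl oxidase sum to 28.9%, 30.7% and 31.4%. The collagen sum itself was 8540 TPM in the control, 4758 in ER stress and 9724 in hypoxia. P4hb, which encodes the partner subunit, was at 1293 TPM in the control, 1853 in hypoxia (0.52) and 2268 in ER stress (0.81). The P4ha sum per TPM of P4hb was thus 0.229 in the control, 0.568 in hypoxia and 0.0858 in ER stress. These are shares of mRNA and say nothing of the amounts of enzyme.

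**Figure D3:**
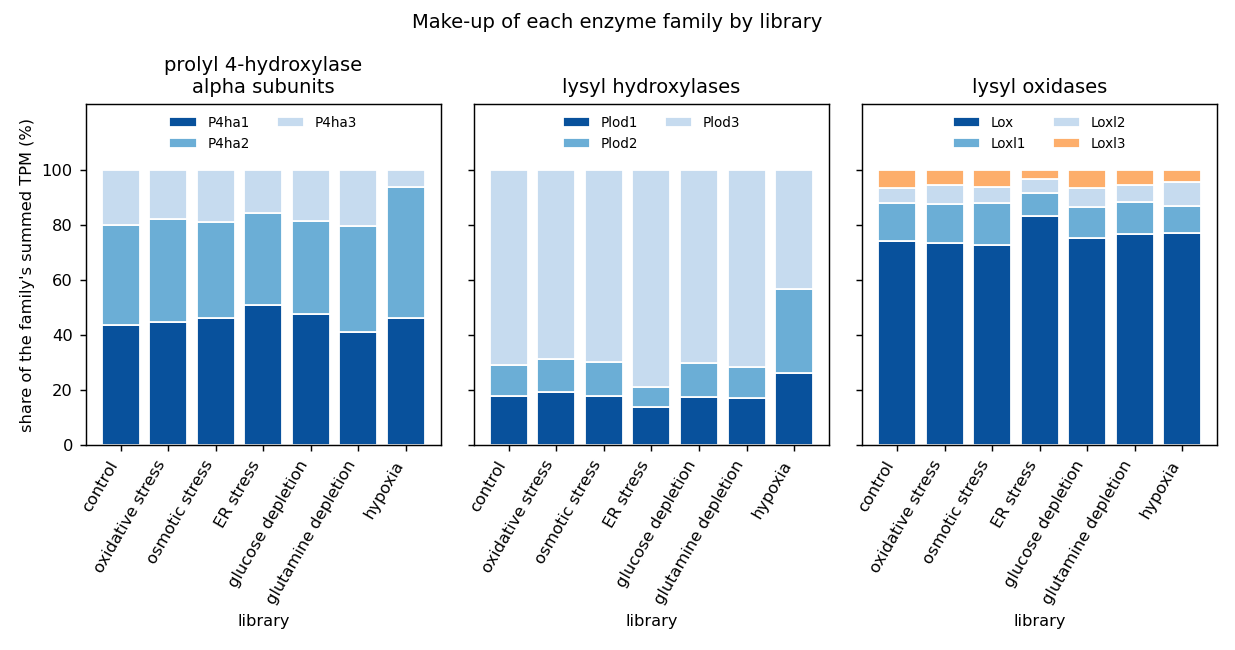
Share of each gene in the summed TPM of its family (%), by library, for the alpha subunits, the lysyl hydroxylases and the lysyl oxidases. Plod3 is the largest part of its family in every library, with its lowest share, 43.2%, in hypoxia, and Lox makes up most of the third family in every library.

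Lox, the founding lysyl oxidase, was the most abundant of the 10 genes in every library and moved little. Its level (ENSMUSG00000024529, chromosome 18, 52516067 to 52529867) was 1828 TPM in the control, 1498 under oxidative and 1653 under osmotic stress, 1218 under ER stress, 1956 without glucose, 2004 without glutamine and 2355 in hypoxia. Hypoxia was highest and ER stress lowest, at log2 changes of 0.37 and -0.59, both within 2-fold. Loxl2 (ENSMUSG00000034205, chromosome 14, 69609068 to 69695834) had the largest log2 change of this family in hypoxia. It had 135 TPM in the control, 138 under oxidative and 131 under osmotic stress, 76.5 under ER stress, 184 without glucose, 163 without glutamine and 266 in hypoxia. At 1.97 times the control (0.98), hypoxia was just short of the threshold, and it passed once the median change over all genes was subtracted (1.02). Glucose depletion gave Loxl2 its second highest level (0.45), the largest upward value of the 10 genes outside hypoxia.

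Loxl1 and Loxl3 were the 2 genes that fell by more than 2-fold, and both did so in ER stress. Loxl1 (ENSMUSG00000032334, chromosome 9, 58287738 to 58313186), which is needed for the renewal of elastic fibres, had 339.8 TPM in the control, 287 under oxidative and 349 under osmotic stress, 121 under ER stress, 298 without glucose, 303 without glutamine and 297 in hypoxia. ER stress was 0.356 times the control (-1.48), and the next lowest library lay 1.24 log2 units above it. Loxl3 (ENSMUSG00000000693, chromosome 6, 83034173 to 83052562) had 168 TPM in the control, 111 under oxidative and 142 under osmotic stress, 47.1 under ER stress, 166 without glucose, 147 without glutamine and 136 in hypoxia. Its level in ER stress was 0.280 times the control (-1.81), and Loxl3 and Loxl1 ranked 426 and 647 from the bottom of the 12909 genes there. Both were below the control in hypoxia, at -0.30 for Loxl3 and -0.19 for Loxl1, so the lysyl oxidases had values on either side of 0 at low oxygen. The share of Lox in the 4 lysyl oxidase genes was 83.3% in ER stress and between 72.7% and 77.1% elsewhere.

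In ER stress the median change over the 10 genes was -0.76, and the median over all 12909 genes was 0.00. The hydroxylase genes lay closer to the control than Loxl1 and Loxl3, with -0.38 for P4ha1, -0.71 for P4ha2, -0.95 for P4ha3, -0.63 for Plod1, -0.84 for Plod2 and -0.13 for Plod3. For Loxl2 the value was -0.81. At a threshold of 1.5-fold, 8 of the 10 genes were lower, against 21.3% of all genes. The fibroblast marker list moved with this result: its 10 genes summed to 14170 TPM in the control, 8766 in ER stress and between 13860 and 16300 in the other libraries, and 3 of the 10 were lower by more than 2-fold in ER stress (median -0.86). Of these markers 3, Col1a1, Col1a2 and Col3a1, are also collagen substrates. The skeletal muscle and cartilage lists were lowest in ER stress too, at 51.0 TPM against 116 in the control and 40.9 against 74.3. So was the macrophage list, at 6.76 against 10.3. The epithelial list was highest there, at 11.8 against 6.335, and the endothelial list stood at 6.41 against 6.12. In bulk RNA, fewer cells of a type and less RNA per cell cannot be told apart, and the part of these marker lists in the result was not tested.

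None of the 10 genes passed 2-fold in the other 4 conditions. All genes past the threshold, upward and downward, were 3.94% and 4.85% under oxidative stress, 3.08% and 8.76% under osmotic stress, 1.83% and 2.41% without glucose, and 3.21% and 3.21% without glutamine. The 40 values of the 10 genes in these conditions ran from -0.59, for Loxl3 in oxidative stress, to 0.45, for Loxl2 in glucose depletion, and 1 of them lay more than 0.5 from 0. Their median distance from 0 was 0.133, against 0.242 over all genes. That comparison was not matched for level: each of the 10 genes had at least 40.7 TPM in the control, while all genes include those averaging only 2 TPM. The medians of the 10 genes were -0.01 under oxidative stress, 0.06 under osmotic stress, 0.10 without glucose and 0.03 without glutamine, beside -0.16, -0.12, -0.02 and -0.09 for all genes. In hypoxia the median of the 10 was 0.67 and that of all genes -0.05.

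Some of these libraries can be set against each other without the control. Between hypoxia and ER stress, both at 10 hours, 8 of the 10 genes were more than 2-fold higher in hypoxia and 0 were lower, where 11.5% and 10.9% of all genes were. The differences (hypoxia minus ER stress) ran from 0.27 for Plod3 and 0.95 for Lox to 2.93 for P4ha2 and 3.13 for Plod2, with a median of 1.65 against -0.04 for all genes. The lysyl oxidase relatives differed by 1.29 (Loxl1), 1.78 (Loxl2) and 1.51 (Loxl3). Between both 3 hour libraries, oxidative minus osmotic stress, 0 of the 10 were past 2-fold, against 7.86% higher and 3.9% lower of all genes, and the median over the 10 was -0.17. Between glutamine and glucose depletion 0 were past 2-fold, against 3.12% higher and 2.37% lower. The largest of these last differences was that of P4ha1, which was 0.43 lower without glutamine than without glucose.

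The listed enzymes and chaperones that work beside these genes stayed within 2-fold in hypoxia. Of 13 other collagen-modifying enzymes and procollagen chaperones that passed the expression filter (14 listed), 0 rose and 0 fell by more than 2-fold in hypoxia, with a median of 0.07. Serpinh1, the collagen chaperone HSP47, was at 1741 TPM in the control and 2148 in hypoxia (0.30). In ER stress 2 of the 13 rose and 1 fell, where 8.6% of all genes rose and 11.0% fell. P3h2, a prolyl 3-hydroxylase, went from 2.02 to 14.1 TPM (2.32), Mia3, which helps to load procollagen into transport carriers, from 243.5 to 519.6 TPM (1.09), and P3h4, a partner of lysyl hydroxylase 1, from 246 to 38.8 TPM (-2.64). P3h2 also rose in glutamine depletion, to 5.94 TPM (1.20).

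Processing proteases, other crosslinking enzymes and substrates also had medians below 0 in ER stress. Of all genes, 11.0% fell by more than 2-fold in that library. Of 6 procollagen processing genes that passed the filter (8 listed), 2 fell, Bmp1, the procollagen C-proteinase, from 107 to 49.9 TPM (-1.08) and Pcolce2, a relative of its enhancer, from 11.5 to 4.21 TPM (-1.27), with a median of -0.90. Of 3 other crosslinking enzymes, Pxdn, the peroxidase that links collagen IV, fell from 87.2 to 16.4 TPM (-2.34), and Loxl4, the remaining lysyl oxidase, stood at 43.2 TPM in the control and 51.5 in ER stress (0.25). Of 8 fibrillar collagen genes that passed the filter (9 listed), 4 fell (median -1.05), namely Col3a1, from 1479 to 352 TPM (-2.07), Col2a1 (-1.34), Col5a1 (-1.22) and Col11a1 (-1.15). Of 10 elastic fibre genes, 4 fell (median -0.81), namely Mfap2 (-2.79), Eln, which encodes elastin (-2.21), Mfap5 (-1.59) and Fbln5 (-1.17). In hypoxia 0 genes of these 4 lists passed 2-fold in either direction, and the medians were -0.13, 0.21, 0.12 and 0.27.

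**Figure D4:**
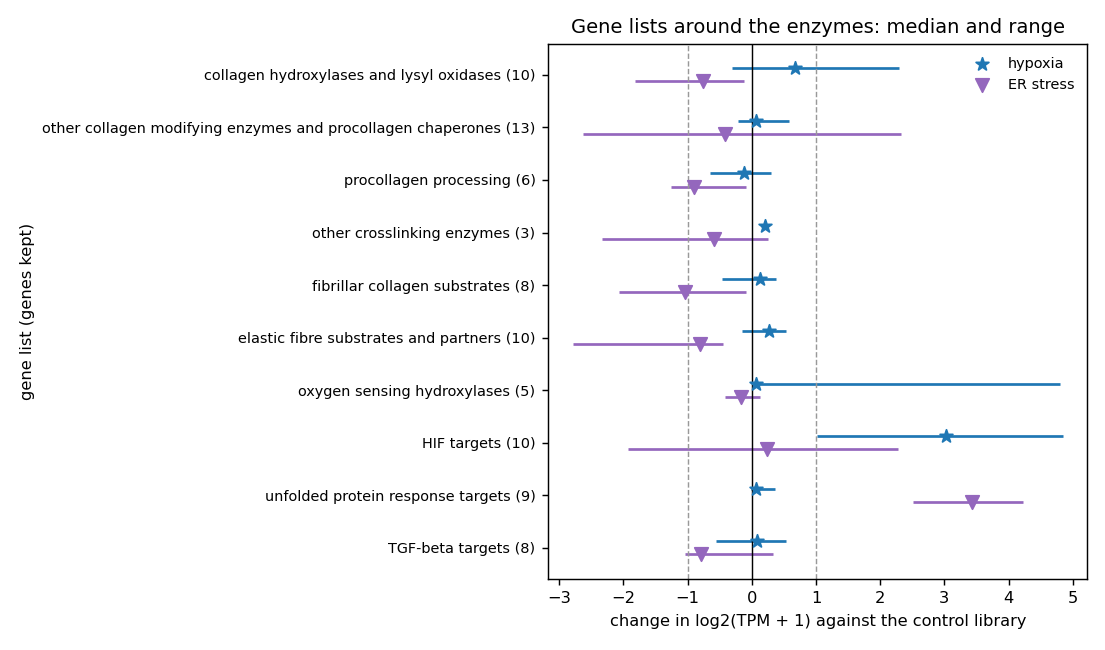
Median (symbol) and lowest to highest value (line) of the change in log2(TPM + 1) for the 10 genes and 9 lists around them, in hypoxia and ER stress against the control; dashed lines mark 2-fold and the number of genes that passed the filter is in brackets. The hypoxia range of the hydroxylases and lysyl oxidases reaches 2.29, and the collagen and elastic fibre lists stay between -0.47 and 0.53 in hypoxia.

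Genes known to respond to low oxygen and to unfolded proteins were read beside the labels. All 10 HIF targets outside the family rose by more than 2-fold in hypoxia, with a median of 3.02 and values from 1.02 (Adm) to 4.85 (Bnip3). In ER stress 3 of them rose, Ndrg1, Ero1l and Vegfa, and 3 fell, Car9, Adm and Ankrd37. The list was not particular to low oxygen: 3 of the 10 also rose in oxidative stress, Vegfa (2.02), Slc2a1 (1.41) and Ndrg1 (1.21). Vegfa had a larger change there and without glutamine (2.34) than in hypoxia (1.79). The 9 targets of the unfolded protein response all rose in ER stress (median 3.44), most of all Sdf2l1 (4.22) and Herpud1 (4.04), and none passed 2-fold in hypoxia (median 0.07). Among 5 oxygen-sensing hydroxylases, which use the same cofactors as the collagen hydroxylases, Egln3 rose in hypoxia from 2.44 to 94.7 TPM (a log2 change of 4.80) and Egln1 from 24.4 to 170.1 TPM (2.75), and the other 3 did not pass 2-fold. The 8 TGF-beta targets had medians of 0.08 in hypoxia and -0.79 in ER stress.

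P4ha1, P4ha2 and Plod2 varied most among the 10 genes, with SDs of log2(TPM + 1) over the 7 libraries of 0.748, 0.912 and 0.951. The genes most like each were taken as those with the highest Pearson r of log2(TPM + 1) over the 7 libraries, among 6756 genes with a range of at least 1 log2 unit. For Plod2 these were Gpi1 (0.996), Plod1 (0.994) and P4ha2 (0.993), for P4ha2 they were Gpi1 (0.994), Pygl (0.994) and Hk1 (0.993), and for P4ha1 they were Ldha (0.995), Pgam1 (0.994) and Snx25 (0.993). Gpi1, Hk1, Ldha and Pgam1 encode enzymes of glycolysis and lactate formation, and Pygl encodes glycogen phosphorylase. Such values come from 7 points that share 1 high library: 92, 96 and 102 genes had an r above 0.9 with Plod2, P4ha2 and P4ha1. Between P4ha2 and Plod2 r was 0.993 over 7 libraries, 0.972 over the 6 without hypoxia and 0.440 over the 5 without hypoxia and ER stress. Loxl1 and Loxl3 had an r of 0.960 over 7 libraries and 0.448 over those 5. Over the same 5 libraries r was 0.742 for Plod1 and Plod2, 0.821 for P4ha2 and Loxl2, and 0.903 for P4ha3 and Loxl3, the highest of all pairs of the 10 genes. Other pairs were negative there, with -0.676 for Plod1 and Loxl2 and -0.859 for Plod1 and Lox, the lowest of all pairs. With 5 points such values are very uncertain.

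The cultures carried the defining transcripts of fibroblasts in every library. The 10 fibroblast markers summed to between 8766 and 16300 TPM, against 6.76 to 16.6 for 6 macrophage markers, 3.50 to 8.04 for 5 endothelial, 4.04 to 11.8 for 5 epithelial, 51.0 to 187 for 5 skeletal muscle and 40.9 to 76.5 for 5 cartilage markers. Ptprc, Adgre1, Cdh5, Epcam, Cdh1, Krt14, Myod1, Myog, Ckm and Matn1 were under 1 TPM in all 7 libraries. Other markers of these lists were present. The highest value in each list was 9.8 TPM for Cd68, 4.23 for Kdr, 10.6 for Krt18, 152 for Acta1 and 53 for Comp. Mitochondrially encoded genes took between 5.09% and 9.25% of a library, and between 19819 and 21154 genes were above 0 TPM. Of the 10 genes, 5 (Plod2, Plod3, Lox, Loxl2 and Loxl3) share exonic bases with another annotated gene, and kallisto at its default settings uses no strand. For Loxl3 that neighbour is Htra2, at 42.0 to 86.4 TPM, for Plod3 it is Znhit1, at 53.1 to 91.3 TPM, and for Loxl2 it is Gm27177, at 6.85 to 20.8 TPM. The split of reads between such pairs is therefore uncertain for Loxl3, Plod3 and Loxl2. Htra2 was at 75.5 TPM in the control, 86.4 in ER stress and 42.0 in hypoxia, and its part in the Loxl3 values was not tested. For Plod2 and Lox the neighbours, Gm38391 and AC161119.1, have no TPM value, so how shared reads were assigned is unknown.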

How the data were processed

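Libraries from 7 cultures were prepared with a stranded mRNA kit and sequenced with paired reads of 76 bases. The authors quantified the reads with kallisto (0.43.1 in the submitters' processing notes), run with its defaults on the mouse cDNA set of Ensembl release 90 (GRCm38), and deposited 1 TPM value a gene, the sum of its transcripts. TPM holds no read counts, so the depth is unknown and no counting interval can be given.

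Changes were taken as log2(TPM + 1) in a stress library minus that in the control, a scale on which changes of weakly expressed genes come out too small. Genes averaging 2 TPM or more were kept (12909 of 49382), and a change of more than 2-fold was counted. With 1 library per condition no test was possible. The members and the gene lists were chosen with earlier results of these data known. Named genes are the 10 members, in each of 9 lists at most the 2 genes with the largest change in a condition and the genes behind any count of 5 or fewer, and the 3 most similar genes of the 3 most variable members. Serpinh1, P4hb and Loxl4 were named after their values were seen. The single-gene result of 1 list is not reported here. Locations and gene types came from GENCODE M21 (GRCm38), with 125 kept genes unmatched, and promoter sequences from RefSeq (GRCm38.p6). Alternatives were pseudocounts of 0.1 and 5 TPM, no filter or one of 10 TPM, subtraction of the median change, rescaling without mitochondrial transcripts, cut-offs of 1.5-fold and 3-fold, and the mean of the other 6 libraries as reference. Restriction to protein-coding genes was added after seeing the data. The steps were tested on simulated data. Software was pandas 2.3.3 and numpy 2.4.6 under Python 3.11.15, with plots by matplotlib 3.10.9.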

Additional observations from a re-analysis of the deposited data

How the results depend on the processing

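Of 120 counts of genes past the threshold (12 counts under 10 alternatives), 116 stayed within 1.5 times the reported count. This is a weak check. Apart from the rise in hypoxia and the fall in ER stress, every reported count was 0, and a 0 that stayed 0 was scored as unchanged. Changing the filter or keeping only protein-coding genes could not alter any count, because all 10 genes passed each time. At 1.5-fold, 1 gene was lower in oxidative stress (Loxl3) in place of 0, where 16.2% of all genes were, and 8 were lower in ER stress in place of 2, where 21.3% of all genes were. At 3-fold, 1 was lower in ER stress (Loxl3), and with the mean of the other 6 libraries as reference 5 were, namely P4ha2, Plod2, Loxl1, Loxl2 and Loxl3. Of all genes, 4.31% were lower at 3-fold and 9.78% with that reference. The count of 1 at 3-fold follows from the stricter threshold. The reference for the count of 5 includes the hypoxia library, in which P4ha2, Plod2 and Loxl2 were highest. A mean of the other libraries without hypoxia was not tried, so the part of the hypoxia library in the count was not tested. The count in hypoxia was 4 in 7 of the alternatives, 5 with centring or at 1.5-fold (Loxl2 added) and 3 at 3-fold (without Plod1). The shares of all genes were between 1.74% and 4.35% in those 7, 3.87% with centring, 7.23% at 1.5-fold and 2.14% at 3-fold. Of 600 values of single genes, 12 newly passed the threshold, 2 no longer did, and 0 of those past 2-fold changed sign. No paired analysis was possible because each condition has 1 library. With 1 library per condition, none of these values carries an estimate of the error between cultures.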
